A study of Homo sapiens with 3 samples.

Results

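The genes of haem synthesis were followed enzyme by enzyme in RNA sequencing of human cells that carry the label KG1a, a line from acute myeloid leukaemia known for the surface antigen CD34. The 9 genes are ALAS1, ALAS2, ALAD, UROS, UROD, CPOX, PPOX and FECH, which encode enzymes of the pathway, and SLC25A38, which encodes its mitochondrial glycine carrier. They were chosen by name from textbook knowledge of the pathway, though with earlier results of these data known. Not every step is among them, and all 9 matched 1 of the 58735 Ensembl genes in the deposited files. There were 2 libraries of TRAF7 knockdown cells (shTRAF7-1 and shTRAF7-2), infected with shTRAF7 lentivirus; TRAF7 encodes a ubiquitin ligase. The control was 1 library (shCtrl) of cells labelled wild type and infected with shCtrl lentivirus. The labels give all 3 libraries the same batch, and do not say whether the 2 knockdown libraries came from separate cultures or carried separate hairpins. The p-values rest on the spread between the 2 knockdown libraries, for each gene and pooled over all genes, and this spread may be technical.

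Haem is made by a chain of enzymes that starts and ends in mitochondria and passes through the cytosol in between. Aminolaevulinate synthase joins glycine and succinyl-CoA in the first and usually rate-limiting step. It exists in a housekeeping form, ALAS1, which haem itself represses, and an erythroid form, ALAS2, which red cell precursors use to supply haemoglobin. The cytosolic enzymes build the porphyrin ring, and the mitochondrial enzymes CPOX, PPOX and FECH oxidise it and insert iron. Inherited defects of these genes cause porphyrias and sideroblastic anaemias.

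Reads assigned to genes numbered 16221721 in shTRAF7-1, 16254461 in shTRAF7-2 and 16014485 in shCtrl. TRAF7 itself was at 15.6 and 18.3 FPKM (reads scaled to exon length and library size) in the knockdown libraries and at 46.5 FPKM in shCtrl, a log2 fold change of −1.41 ± 0.19 (SE) with an adjusted p of 0.274 by limma and 2.69e-05 by limma-voom. The defining antigen of the labelled line was close to absent: CD34 had 1 read in shTRAF7-1, 10 reads in shTRAF7-2 and 0 in shCtrl, where 3 reads correspond to 0.0193 FPKM. Of 7 marker genes of the line, CD34, CD44 and ERG were below 0.1 FPKM in all 3 libraries, while PTPRC, SPN, MYB and RUNX1 were above 1 FPKM. Genes of the red cell lineage were present, with the erythroid transcription factor GATA1 at 104 and 116 FPKM in the knockdown libraries and 128 FPKM in shCtrl, and its partner KLF1 at 61.7 and 55.8 FPKM against 56.5 FPKM (GATA1 and KLF1 are named here after their values were seen). The data thus go against the label on its defining marker, and the cells are referred to below by their library names.

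Promoter sequences are shown for ALAS2 and ALAS1, the alternative first enzymes whose balance differed between libraries, and for CPOX, the haem gene with the lowest p-value. Each run is the 210 bases before the RefSeq transcription start, 5′ to 3′ on the gene's strand (GRCh38.p14). Capitals mark GATAA, the core of sites bound by GATA factors, and in ALAS2 also CACCC, the core of sites bound by KLF1, on either strand. ALAS1, chr3:52197873-52198082, plus strand, holds no GATAA and is shown in lower case throughout. It does hold a CACCC match on the other strand, at −172 to −168 from the start, which is not capitalised.
ALAS2, chrX:55030978-55031187, minus strand: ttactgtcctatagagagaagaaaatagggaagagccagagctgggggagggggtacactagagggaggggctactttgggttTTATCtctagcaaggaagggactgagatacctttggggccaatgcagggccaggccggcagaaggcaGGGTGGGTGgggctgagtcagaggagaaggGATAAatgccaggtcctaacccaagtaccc
ALAS1: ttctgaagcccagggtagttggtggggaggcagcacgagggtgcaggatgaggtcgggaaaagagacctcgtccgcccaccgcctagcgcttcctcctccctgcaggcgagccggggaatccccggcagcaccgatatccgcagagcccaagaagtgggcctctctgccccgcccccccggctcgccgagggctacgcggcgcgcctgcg
CPOX, chr3:98593612-98593821, minus strand: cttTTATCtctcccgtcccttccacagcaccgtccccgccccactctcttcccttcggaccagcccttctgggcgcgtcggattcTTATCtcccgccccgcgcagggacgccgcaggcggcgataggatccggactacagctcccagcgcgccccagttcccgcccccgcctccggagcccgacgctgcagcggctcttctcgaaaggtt

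RefSeq windows of 250 bases before a start were found for 8 of the 9 genes, with 2 windows each for PPOX and ALAD. A gene counts below if any of its windows matches, while the shares of all genes are per window. GATAA was present on either strand for 3 of the 8 (ALAS2 and CPOX with 2 matches each, and PPOX with 1 in the second of its 2 windows), against 20.5% of 34788 windows of all genes. CACCC was present for 5 of the 8, against 54.7% of all windows; the 2 matches of ALAS2 overlap by a base. The E-box CANNTG was present for 7 of the 8, against 61.8%. The letters of the Maf recognition element (0.339% of all windows) and of the NRF1 site (5.05%) were in none of these windows, on either strand. The ALAS2 window holds 1 CpG, and 6.08% of all windows hold fewer, while the windows of the other genes hold 12 to 27 (median of all windows, 11). In GC content ALAS2, at 52.8%, lay between SLC25A38 at 49.6% and UROD at 53.6%. A match describes the letters and does not show that a factor is bound.

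ALAS2 messenger RNA also carries an iron-responsive element near its 5′ end, where iron regulatory proteins bind and block translation when iron is scarce. It is shown because ALAS2 RNA levels, the quantity measured here, are therefore not a measure of ALAS2 protein. The stretch of 28 bases (GRCh38.p14, minus strand, chrX:55030941-55030968) has the 6-base loop in capitals, and the 5 bases on either side of the loop pair with each other, a G-T pair included.
ALAS2 iron-responsive element: tcgttcgtcctCAGTGCagggcaacagg

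The levels of the 9 genes lay far apart. UROD, which removes carboxyl groups from uroporphyrinogen, was far above the rest, at a mean of 209 ± 13.98 FPKM in the knockdown libraries (SD, n = 2) and 179 FPKM in shCtrl. Its mean over the 3 libraries exceeded that of 98.8% of the 12640 genes tested. FECH, which inserts iron into protoporphyrin, came next at 25.2 ± 3.68 FPKM in the knockdown libraries, against 21.3 FPKM in shCtrl. SLC25A38, CPOX and ALAS1 followed, at 19.0 ± 1.69, 18.3 ± 0.946 and 16.1 ± 2.08 FPKM in the knockdown libraries and 20.2, 13.5 and 13.8 FPKM in shCtrl. Below them stood ALAD and ALAS2, at 8.61 ± 1.63 and 8.06 ± 1.52 FPKM against 9.66 and 11.2 FPKM. PPOX averaged 5.58 ± 0.560 FPKM against 5.34 FPKM, and UROS 2.05 ± 0.440 FPKM against 2.44 FPKM. By the range over the 3 libraries, SLC25A38 and CPOX could not be told apart, nor could CPOX and ALAS1, or ALAD and ALAS2, while the other neighbours in this order did not overlap.

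This order depends on the length used for each gene. FPKM divides by all exons of all transcripts, which come to 9532 bases for UROS, while its principal coding transcript (APPRIS) has 1342. With reads divided by the length of the principal transcript, a scale chosen after the data were seen, UROS was at 12.4 and 16.8 in the knockdown libraries and 17.3 in shCtrl (reads per kilobase, scaled to library size), which gave it rank 7 in shTRAF7-1, rank 6 in shTRAF7-2 and rank 4 in shCtrl, while ALAS2 had rank 9 in all 3. UROD kept the first place on that scale, at 489 and 445 in the knockdown libraries and 399.6 in shCtrl. That scale overstates genes with many reads outside the principal transcript.

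**Figure D1:**
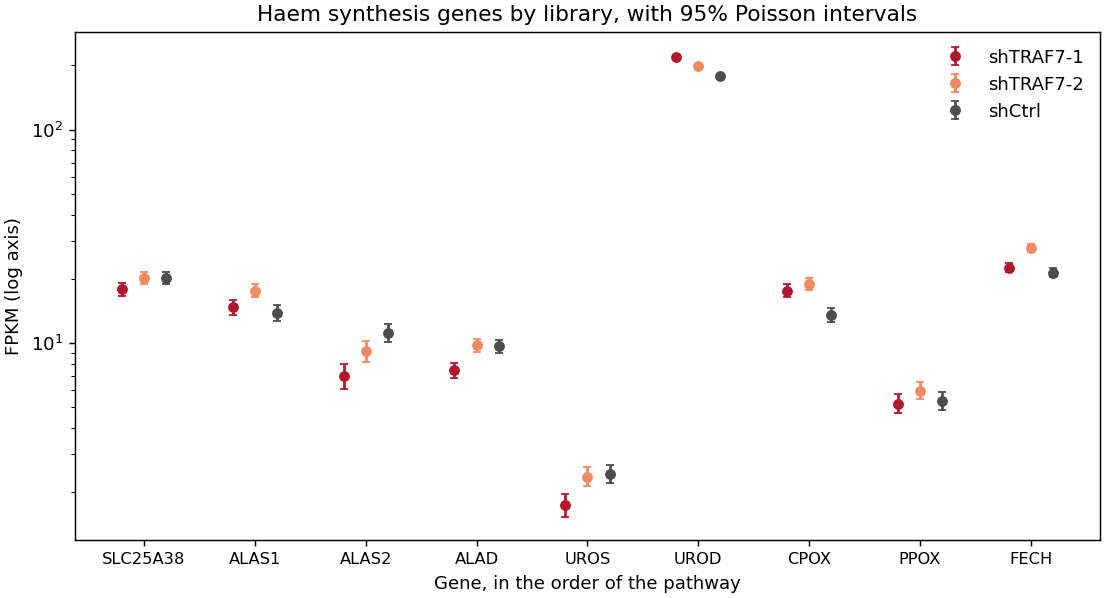
FPKM (log axis) of the 9 haem genes in shTRAF7-1, shTRAF7-2 and shCtrl, one point per library with its exact 95% Poisson interval of the recovered reads. UROD lies at 179 to 219 FPKM and UROS at 1.74 to 2.44 FPKM, and for most genes the libraries differ little beside the differences between genes.

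The question of the comparison is how these genes differ when TRAF7 is depleted. None of the 9 genes passed the test: by limma with intensity trend on log2(FPKM + 1), 0 were called at an adjusted p under 0.05, and 0 had an unadjusted p under 0.05. The test called 0% of all 12640 genes in either direction at the adjusted threshold, and 5.46% were higher and 3.73% lower at an unadjusted p under 0.05. With whole reads, recovered from FPKM, limma-voom called 0 of the 9, against 0.206% of 15034 genes called higher and 0.659% called lower. At an unadjusted p under 0.05 limma-voom had 1 of the 9 higher, CPOX, and 0 lower, against 5.73% and 6.39% of all genes. The fitted log2 fold changes of the 9 genes ran from −0.44 to 0.41, with a median of 0.05, beside 0.04 over all genes tested. The fit has 1 residual degree of freedom, from the knockdown pair, and assumes that the lone control varies as that pair does. Both models also draw the variance of each gene toward values fitted over all genes. That pooled part had 4.74 prior degrees of freedom in limma and 35.5 in limma-voom, so it outweighs the spread of the gene itself. In whole-cell RNA, fewer cells that express a gene and less of its RNA per cell cannot be told apart.

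Against shCtrl, 4 genes were higher in both knockdown libraries (ALAS1, UROD, CPOX and FECH), where 42.5% of all genes tested were. Both ALAS2 and UROS were lower in both knockdown libraries, where 30.8% of all genes were, and SLC25A38, ALAD and PPOX lay on opposite sides of shCtrl in the 2 libraries, as 26.7% of all genes did or tied. These shares are close to the background. None of the 9 was at least 1.5-fold from shCtrl in both libraries, where 2.52% of all genes were that much higher and 3.49% that much lower. The counts move with scaling. When values were scaled to all assigned reads, 2 genes were higher in both and 4 lower in both. After quantile normalization 1 was higher in both and 3 lower in both. The library size used in FPKM was 0.959 times the assigned reads in shTRAF7-1, 1.0004 times in shTRAF7-2 and 1.05 times in shCtrl. ALAS1 and FECH had fewer reads in shTRAF7-1 than in shCtrl (579 against 592 and 1571 against 1610), although more reads were assigned in shTRAF7-1.

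At the first step the housekeeping and erythroid forms differed in direction. ALAS1 (ENSG00000023330, chromosome 3, positions 52198086 to 52214327, plus strand, GRCh38, as for all genes below) had 14.7 and 17.6 FPKM in shTRAF7-1 and shTRAF7-2, against 13.8 FPKM in shCtrl. Its 95% Poisson intervals were 13.5 to 15.9, 16.3 to 18.9 and 12.7 to 15.0, so that only shTRAF7-2 lay above shCtrl by counting error. ALAS1 had a fitted log2 fold change of 0.20 (95% confidence interval −0.28 to 0.69), with limma's adjusted p = 0.775.

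ALAS2 (ENSG00000158578, chromosome X, positions 55009055 to 55031064, minus strand) had 6.99 and 9.13 FPKM in shTRAF7-1 and shTRAF7-2, against 11.2 FPKM in shCtrl. Both knockdown libraries were lower than shCtrl, at 62.5% and 81.7% of it, although the interval of shTRAF7-2 (8.16 to 10.2) touched that of shCtrl (10.1 to 12.3). The knockdown libraries were themselves apart, since the interval of shTRAF7-1 was 6.12 to 7.94. ALAS2 had a fitted log2 fold change of −0.44 (95% confidence interval −0.96 to 0.09), with limma's adjusted p = 0.588 and limma-voom's 0.441.

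The balance of the isoenzymes can be read within each library, where scaling between libraries cancels. ALAS2 gave 28.6% of all ALAS1 and ALAS2 reads in shTRAF7-1 (232 of 811 reads; exact Clopper-Pearson 95% interval 25.5 to 31.9), 30.4% in shTRAF7-2 (317 of 1043; 27.6 to 33.3) and 40.5% in shCtrl (403 of 995; 37.4 to 43.6). Both knockdown libraries lay below shCtrl, their intervals overlapped each other, and neither overlapped that of shCtrl. The mean share was 29.5% ± 1.26 (SD, n = 2) in the knockdown libraries, a difference of −11.003 percentage points from shCtrl. The intervals cover counting error only, and with 2 libraries against 1 an exact permutation test cannot give a p below 0.333, so none is claimed. This share was computed after the data were seen. The ratio of CPOX to ALAS2 in FPKM was also computed, and no other gene pairs were examined. That ratio was 2.52 and 2.07 in shTRAF7-1 and shTRAF7-2, against 1.21 in shCtrl. How often gene pairs separate as the ALAS2 share did is not known. The transcripts of ALAS1 and ALAS2 shared 0 stretches of 31 bases.

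**Figure D2:**
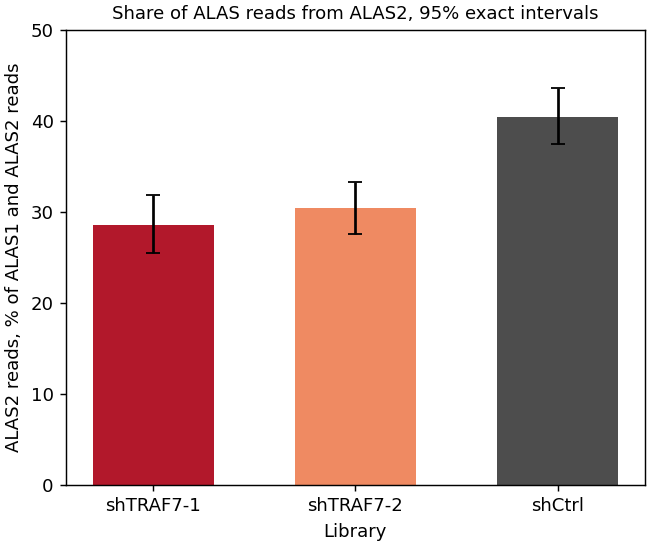
Reads of ALAS2 as a percentage of ALAS1 and ALAS2 reads in shTRAF7-1, shTRAF7-2 and shCtrl, with exact 95% binomial intervals. The knockdown libraries stand at 28.6% and 30.4%, below the 40.5% of shCtrl.

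SLC25A38, which brings glycine into mitochondria for the first step (ENSG00000144659, chromosome 3, positions 39383324 to 39397351, plus strand), had 17.8 and 20.2 FPKM in shTRAF7-1 and shTRAF7-2, against 20.2 FPKM in shCtrl. The level in shTRAF7-2 was 100.1% of shCtrl, and that in shTRAF7-1 was 88.3%. SLC25A38 had a fitted log2 fold change of −0.08 (95% confidence interval −0.54 to 0.37; limma's adjusted p = 0.918).

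Among the cytosolic enzymes, ALAD and UROS were below shCtrl by more than counting error in shTRAF7-1 only, while UROD was higher in both knockdown libraries. ALAD, which condenses aminolaevulinate to porphobilinogen (ENSG00000148218, chromosome 9, positions 113386317 to 113401333, minus strand), had 7.45 and 9.76 FPKM in shTRAF7-1 and shTRAF7-2, against 9.66 FPKM in shCtrl. UROS, which closes the porphyrin ring (ENSG00000188690, chromosome 10, positions 125784980 to 125823285, minus strand), had 1.74 and 2.36 FPKM in shTRAF7-1 and shTRAF7-2, against 2.44 FPKM in shCtrl. For both genes the Poisson interval of shTRAF7-1 lay below that of shCtrl (6.86 to 8.09 against 9.01 to 10.4 for ALAD, 1.53 to 1.96 against 2.20 to 2.69 for UROS), and that of shTRAF7-2 overlapped it. The fitted log2 fold changes were −0.16 for ALAD and −0.18 for UROS (limma's adjusted p = 0.844 and 0.841).

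UROD (ENSG00000126088, chromosome 1, positions 45012147 to 45015575, plus strand) had 219 and 199 FPKM in shTRAF7-1 and shTRAF7-2, against 179 FPKM in shCtrl, on 9897, 9406 and 8771 reads. With so many reads the intervals were narrow (214 to 223, 195 to 203 and 175 to 182), and all 3 libraries were apart from one another. UROD had a fitted log2 fold change of 0.22 (95% confidence interval −0.12 to 0.56; limma's adjusted p = 0.665), and of −0.035 after quantile normalization.

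Of the mitochondrial enzymes of the last steps, CPOX was the most clearly separated from the control. CPOX (ENSG00000080819, chromosome 3, positions 98579446 to 98593723, minus strand) had 17.6 and 18.9 FPKM in shTRAF7-1 and shTRAF7-2, against 13.5 FPKM in shCtrl. The intervals of the knockdown libraries (16.5 to 18.8 and 17.8 to 20.1) overlapped each other and lay above that of shCtrl (12.6 to 14.5). Such a separation in both libraries was seen for 2 of the 9 genes, CPOX and UROD, and for 16% of all genes tested; the opposite separation was seen for 0 of the 9 and 7.81% of all genes. The fitted log2 fold change of CPOX was 0.41 ± 0.18 (SE; 95% confidence interval −0.03 to 0.85), with limma's unadjusted p = 0.0648 and adjusted p = 0.560. By limma-voom its unadjusted p was 0.0444 and its adjusted p 0.397. AC021660.3, annotated on the same strand, shares 5.04% of the CPOX exon bases and had 0 reads in all 3 libraries.

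PPOX (ENSG00000143224, chromosome 1, positions 161166410 to 161178013, plus strand), which makes protoporphyrin, had 5.19 and 5.98 FPKM in shTRAF7-1 and shTRAF7-2, against 5.34 FPKM in shCtrl. Its 3 intervals overlapped, and the fitted log2 fold change was 0.05 (95% confidence interval −0.40 to 0.51; limma's adjusted p = 0.956) and −0.036 with scaling to all assigned reads. B4GALT3, on the opposite strand, covers 24.3% of the PPOX exon bases and had 1324 and 1428 reads in shTRAF7-1 and shTRAF7-2 and 1316 in shCtrl, against 372, 448 and 415 reads of PPOX itself. Whether reads were counted by strand is not stated, so the reads of PPOX are uncertain in that stretch.

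FECH (ENSG00000066926, chromosome 18, positions 57548283 to 57586772, minus strand) had 22.6 and 27.8 FPKM in shTRAF7-1 and shTRAF7-2, against 21.3 FPKM in shCtrl. shTRAF7-2 was above both other libraries (interval 26.6 to 29.01), and the interval of shTRAF7-1 (21.5 to 23.7) overlapped that of shCtrl (20.3 to 22.4). The fitted log2 fold change of FECH was 0.22 (95% confidence interval −0.28 to 0.72; limma's adjusted p = 0.759). The pseudogenes FECHP1 and SLC25A38P1 had 0 reads in all 3 libraries.

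**Figure D3:**
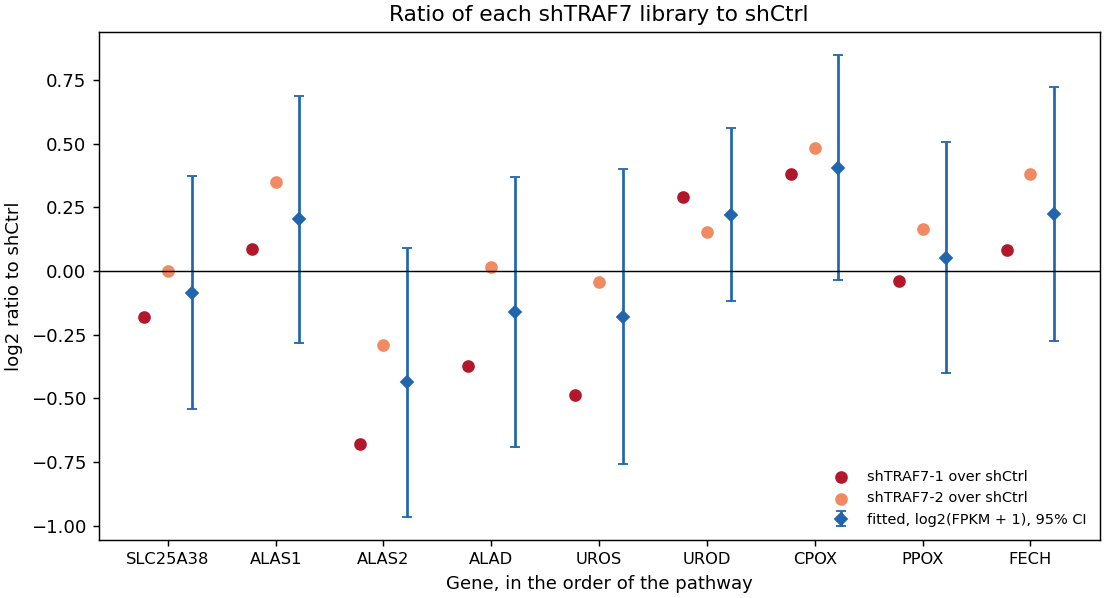
Log2 ratio of FPKM in shTRAF7-1 and in shTRAF7-2 to shCtrl for the 9 haem genes, with the fitted log2 fold change on log2(FPKM + 1) and its 95% confidence interval (diamonds). All 9 confidence intervals include 0, and the 2 knockdown libraries lie on the same side of shCtrl for 6 genes.

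The knockdown libraries differed from each other mostly in the same direction over these genes. In 8 of the 9, all but UROD, shTRAF7-2 was higher than shTRAF7-1, while it was higher for 45.3% of all genes tested. The count was 8 of 9 under the other scalings too, where the share of all genes was 49.0% with median-of-ratios rescaling, 48.1% after quantile normalization and 53.6% with scaling to all assigned reads. In FPKM, shTRAF7-1 was at 73.7% of shTRAF7-2 for UROS, 76.3% for ALAD, 76.5% for ALAS2, 81.3% for FECH and 83.3% for ALAS1. It was at 86.8% for PPOX, 88.2% for SLC25A38 and 92.9% for CPOX, where the Poisson intervals of the knockdown libraries overlapped, and at 109.9% for UROD. In 6 of the 9 (ALAS1, SLC25A38, ALAD, UROS, PPOX and FECH) the knockdown libraries were further apart than their mean was from shCtrl, which held for 47.7% of all genes. ALAS2, UROD and CPOX were the exceptions. The hairpin, culture and library of each knockdown sample cannot be told apart.

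By the likeness of the pair of log2 ratios to shCtrl, over 3 libraries, the 5 protein-coding genes nearest to CPOX (0.36 in shTRAF7-1 and 0.46 in shTRAF7-2, on log2(FPKM + 1)) were UQCRB, STOML2, GALNT2, FADD and MALSU1, at Euclidean distances of 0.010 to 0.022. STOML2 had 124 and 132 FPKM in the knockdown libraries and 95.6 FPKM in shCtrl, and UQCRB, a subunit of respiratory complex III, had 19.8 and 21.2 FPKM against 15.3 FPKM. Of 9896 genes compared, 134 lay within 0.1 of CPOX.

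Around the pathway, no gene of 5 related lists was called by limma or limma-voom over all genes. The counts of each list in FPKM stand beside 42.5% of all genes tested that were higher in both knockdown libraries and 30.8% that were lower. In the supply of glycine and succinyl-CoA, 5 of 9 tested genes were higher and 3 lower in both knockdown libraries, but 3 and 4 after quantile normalization and 2 and 3 with scaling to all assigned reads. The plasma membrane glycine transporter SLC6A9 had 9.64 and 11.002 FPKM in shTRAF7-1 and shTRAF7-2, against 14.9 FPKM in shCtrl. Its log2 fold change was −0.49 ± 0.19 (SE; limma's unadjusted p = 0.0395 and adjusted p = 0.528), and the intervals of both knockdown libraries were below that of shCtrl. DLST, a subunit of the succinyl-CoA-producing 2-oxoglutarate dehydrogenase, had 27.5 and 25.5 FPKM against 19.95 FPKM, and the glycine-making enzyme SHMT1 had 6.08 and 6.08 FPKM against 4.61 FPKM (limma's adjusted p = 0.566 and 0.603).

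Among mitochondrial carriers and iron-sulphur cluster genes, 15 of 18 tested were higher and 1 lower in both knockdown libraries, with a median log2 fold change of 0.16. These counts were 11 and 3 after quantile normalization and 9 and 3 with scaling to all assigned reads. BOLA3, which helps to pass on iron-sulphur clusters, had 14.1 and 14.8 FPKM in shTRAF7-1 and shTRAF7-2 and 9.40 FPKM in shCtrl. The carrier gene SLC25A39 had 93.4 and 84.4 FPKM in the knockdown libraries and 68.3 FPKM in shCtrl, and the co-chaperone HSCB had 2.46 and 2.69 FPKM against 1.74 FPKM. Limma's adjusted p was 0.476 for BOLA3, 0.556 for SLC25A39 and 0.624 for HSCB.

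A mixed list of 14 genes held haem a synthesis, cytochromes and other haem proteins, with the peroxisomal catalase CAT and the flavoprotein reductase CYB5R3 among them. Of these, 10 were tested, and the 10 were higher in both knockdown libraries, where 42.5% of all genes tested were. Their median log2 fold change was 0.28, with 0 called. Of the 10, 6 were higher in both after quantile normalization and 7 with scaling to all assigned reads, where 1 was lower. HCCS, which attaches haem to cytochrome c, had 25.4 and 23.1 FPKM in shTRAF7-1 and shTRAF7-2, against 16.3 FPKM in shCtrl. CYCS, cytochrome c itself, had 100.3 and 91.3 FPKM against 68.3 FPKM, and CYB5B, an outer membrane cytochrome, had 26.3 and 21.2 FPKM against 15.99 FPKM. Their unadjusted p-values by limma were 0.0246, 0.0244 and 0.0408, and their adjusted p-values 0.493, 0.493 and 0.528.

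Of the breakdown, export and binding genes, 7 of 10 tested were higher and 1 lower in both knockdown libraries (median log2 fold change 0.15), but 3 and 3 with scaling to all assigned reads and 3 and 2 after quantile normalization. HMOX1, the inducible haem oxygenase, was listed at 0 in all 3 libraries, where 3 reads would give 0.0801, 0.0767 and 0.0739 FPKM in shTRAF7-1, shTRAF7-2 and shCtrl. The constitutive form HMOX2 had 13.2 and 12.4 FPKM in the knockdown libraries and 10.5 FPKM in shCtrl, and the biliverdin reductase BLVRB had 169.5 and 171 FPKM against 149 FPKM, with a log2 fold change of 0.19 that was −0.071 after quantile normalization. The haem exporter FLVCR1 had 3.11 and 2.15 FPKM against 1.96 FPKM. Limma's adjusted p was 0.685 for HMOX2, 0.700 for BLVRB and 0.749 for FLVCR1.

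Regulators of aminolaevulinate synthase and haem sensors were spread in direction, with 7 of 16 tested higher and 4 lower in both knockdown libraries and a median log2 fold change of 0.05 (4 higher and 6 lower with scaling to all assigned reads, 6 and 8 after quantile normalization). ACO1, which without its iron-sulphur cluster is an iron regulatory protein that binds elements such as that of ALAS2, had 12.5 and 11.6 FPKM in shTRAF7-1 and shTRAF7-2, against 8.94 FPKM in shCtrl. NRF1, a transcription factor of mitochondrial genes, had 6.48 and 5.52 FPKM against 4.32 FPKM. CLPP, the protease partner of CLPX, had 49.4 and 45.9 FPKM against 37.99 FPKM. Limma's adjusted p was 0.566 for ACO1, 0.584 for NRF1 and 0.617 for CLPP.

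**Figure D4:**
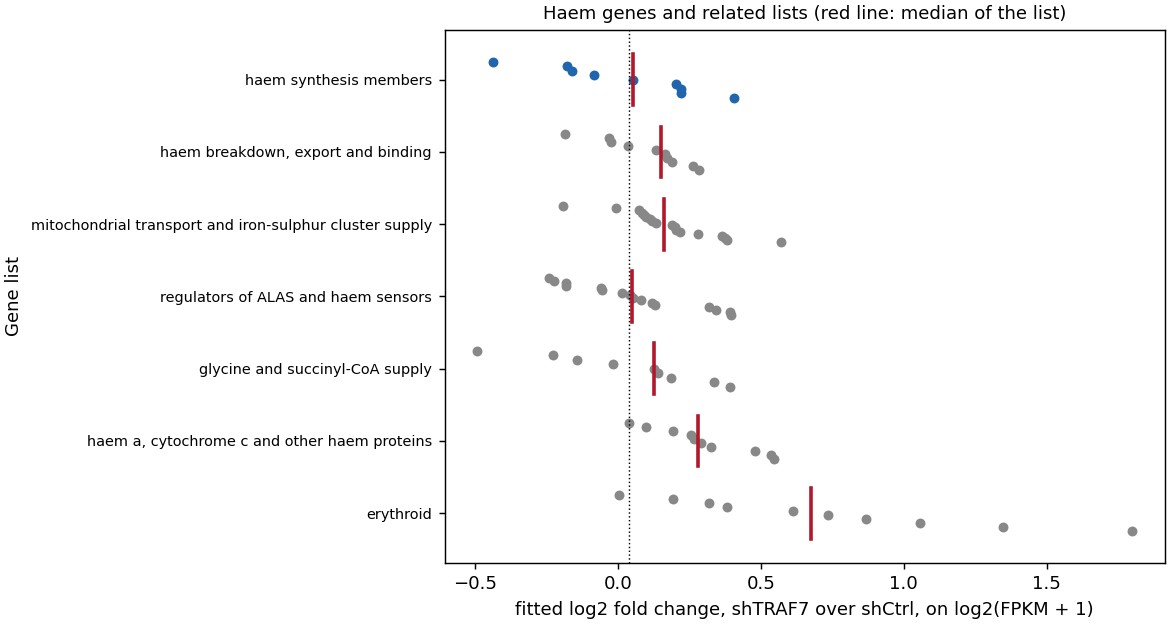
Fitted log2 fold change, shTRAF7 over shCtrl, of each tested gene of the haem synthesis set, of 5 related lists and of the erythroid markers; red lines are medians and the dotted line is the median of all 12640 genes tested, 0.04. The haem synthesis genes spread from −0.44 to 0.41 on both sides of it, and the erythroid markers have a median of 0.67.

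Erythroid markers other than ALAS2 were higher in sum in the knockdown libraries, where ALAS2 had lower values. The summed level of the 15 markers was 455 and 430.5 FPKM in shTRAF7-1 and shTRAF7-2, against 223 FPKM in shCtrl, and 8 of the 10 tested were higher in both knockdown libraries and 0 lower, under all 3 other scalings as well. Of all genes tested, 42.5% were higher and 30.8% lower in both knockdown libraries in FPKM. By limma 0 of the markers were called. Limma-voom, which fitted 12 of them, called 5 higher, against 0.206% of all genes it fitted. These were HBA1, HBA2, HBG1, HBZ and TFRC (limma-voom's adjusted p = 1.4e-05, 0.00244, 0.00338, 0.0279 and 0.0375). HBA1 and HBA2, and likewise HBG1 and HBG2, are near-identical copies whose reads may be split between them. SLC4A1, the anion exchanger of red cells, had 0.225 and 0.563 FPKM in the knockdown libraries and 1.05 FPKM in shCtrl, and beta-globin HBB had 0.345 and 1.89 FPKM against 0.590 FPKM. Of the 7 marker genes of the labelled line, 4 were tested, of which 0 were higher and 3 lower in both knockdown libraries (median log2 fold change −0.17), with 0 called. PTPRC, a leukocyte surface phosphatase, had 5.60 and 6.53 FPKM in the knockdown libraries and 9.54 FPKM in shCtrl, with the intervals of both below that of shCtrl. The summed level of the 7 was 83.1 and 80.6 FPKM against 94.4 FPKM. The summed hepatocyte markers were at 0.147 and 0.428 FPKM in the knockdown libraries and 0.185 FPKM in shCtrl, with CYP3A4 listed at 0. The part of these markers in the ALAS values was not tested.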

How the data were processed

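RNA of 3 libraries was measured by sequencing, 2 shTRAF7 and 1 shCtrl. The authors deposited 1 FPKM value per gene and library, per the file headers; BWA, Bowtie and hg19 are named in the submitters' processing notes with no roles or versions, and no source names the counting tool. All 58735 identifiers matched GENCODE release 29 (GRCh38), whose symbols and coordinates are used. Whole reads were recovered, since FPKM times summed exon length fell on multiples of the value of a read in each library (100% of values above 0, within 0.05). Intervals are exact 95% Poisson or binomial and cover counting error only, as do floors of 3 reads.

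The main test was limma 3.58.1 (R 4.3.3) with an intensity trend, run on log2(FPKM + 1) where the mean over libraries reached 1 FPKM and adjusted by Benjamini-Hochberg over all genes tested; fold changes on this scale understate low genes. Limma-voom used recovered reads (mean of at least 10). Both were also run on simulated data. The changes planted there were all larger than those fitted for the haem genes, so these runs do not bear on changes of that size. The genes, lists and tests were chosen with earlier results of these data known. All 9 haem genes are named, and up to 3 genes per related list by lowest p. Alternatives were other scalings, filters, pseudocounts and models, and each shTRAF7 library alone. Sequences come from RefSeq (GRCh38.p14).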

Additional observations from a re-analysis of the deposited data

How the results depend on the processing

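No haem gene was called under any alternative that has a test. With both knockdown libraries in the fit their directions held under these alternatives, except UROD under quantile normalization (−0.035) and PPOX with scaling to all assigned reads (−0.036); of the 15 genes named from the related lists BLVRB turned to −0.071 under quantile normalization. Genes called over the whole table numbered 3 at a mean of at least 5 FPKM, 13 among protein-coding genes and 130 by limma-voom. Haem genes higher in both libraries numbered 1 under quantile normalization and 2 with scaling to all assigned reads; those lower in both numbered 4 under median-of-ratios rescaling, 4 with scaling to all assigned reads and 1 at a mean of at least 5 FPKM, where UROS was not tested. With 1 knockdown library left out, 4 to 7 haem genes were higher than shCtrl and 2 to 5 lower, since SLC25A38, ALAD and PPOX lie on opposite sides of shCtrl in the knockdown libraries, and the ALAS2 share was 10.1 to 11.9 percentage points lower (−10.1 and −11.9); 1 library against 1 has no test. The cause of these shifts was not tested. No paired analysis was possible because the control library carries no replicate number and the groups share fewer than 2. ALAS2 and UROS rest on 232 to 403 reads a library.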
